A study of Homo sapiens with 6 samples.

Results

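Messenger RNA levels were described for 10 genes of the human mitochondrial inner membrane and its contact with the outer membrane, out of 13002 genes that the deposited tables list. They are the MICOS subunits IMMT, CHCHD3, CHCHD6, APOO and APOOL, the outer membrane protein SAMM50, the fusion GTPase OPA1, the prohibitins PHB and PHB2, and the J protein DNAJC19. A gene was taken where its listed symbol equalled one of these names in both tables, and all 10 had a value in every library. The names were chosen for their biology and by no rule on a measured value. Earlier results of these data were known at that choice.

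The cells were OCI-AML2, a cell line from human acute myeloid leukaemia that the labels also describe as an engineered leukemic stem cell line. They had been infected with lentivirus carrying TAZ shRNA2, TAZ shRNA1 or a control hairpin, and each group had 2 libraries, lettered A and B. All 3 groups had passed through selection in puromycin at 2.0 µg/mL for 3 days. The sample labels name the control as a scramble hairpin, whereas the columns that hold its values carry the word GFP. Whether the lettered libraries are independent cultures is not stated, and the p-values reflect variation between libraries that may be purely technical. The same control libraries served both hairpins. TAZ encodes tafazzin, the transacylase that remodels the acyl chains of cardiolipin, and its loss in Barth syndrome leaves the inner membrane short of mature cardiolipin.

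The inner membrane of a mitochondrion folds into cristae, and the MICOS complex sits at the necks where each crista opens. IMMT, also called mitofilin or MIC60, is the MICOS scaffold that bends the membrane. CHCHD3 (MIC19) ties it to SAMM50 in the outer membrane, and CHCHD6 (MIC25) is the related subunit. OPA1 fuses inner membranes and keeps crista necks narrow, while PHB and PHB2 alternate in ring-shaped assemblies that organise lipids and proteases in the same membrane. DNAJC19 binds prohibitin rings, and loss of that gene causes a cardiomyopathy that resembles Barth syndrome.

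The promoters of 4 of these genes are printed because they carry the contrast described below: CHCHD3 and CHCHD6 encode related subunits that moved in opposite directions, and PHB and PHB2, partners in the same ring, had lower values in every knockdown library. Each sequence is the 250 bases before the most upstream RefSeq start, from RefSeq on GRCh38.p14, read 5′ to 3′ on the gene's own strand. Capitals mark matches, as spelled or as the reverse complement, to the CCAAT box CCAAT, to the ETS motif CCGGAAG and to the GC box GGGCGG. No marked match overlaps another in these 4 windows.
CHCHD3, chr7:133082091-133082340, minus strand: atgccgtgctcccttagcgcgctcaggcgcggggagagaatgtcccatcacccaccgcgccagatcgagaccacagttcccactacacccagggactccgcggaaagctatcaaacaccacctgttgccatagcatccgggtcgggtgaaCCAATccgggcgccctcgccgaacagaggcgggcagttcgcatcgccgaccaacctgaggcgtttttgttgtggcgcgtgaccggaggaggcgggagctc
CHCHD6, chr3:126703990-126704239, plus strand: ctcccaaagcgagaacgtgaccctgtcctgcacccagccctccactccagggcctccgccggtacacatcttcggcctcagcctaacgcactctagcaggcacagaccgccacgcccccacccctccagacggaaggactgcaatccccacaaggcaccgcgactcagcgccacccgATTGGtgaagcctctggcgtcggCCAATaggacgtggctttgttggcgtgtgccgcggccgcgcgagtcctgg
PHB (PHB1 in RefSeq), chr17:49414883-49415132, minus strand: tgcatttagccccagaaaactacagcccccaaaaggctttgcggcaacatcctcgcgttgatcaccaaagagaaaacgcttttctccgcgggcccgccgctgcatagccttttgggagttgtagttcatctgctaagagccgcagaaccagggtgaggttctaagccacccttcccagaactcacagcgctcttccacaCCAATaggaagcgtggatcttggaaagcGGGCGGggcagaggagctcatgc
PHB2, chr12:6970754-6971003, minus strand: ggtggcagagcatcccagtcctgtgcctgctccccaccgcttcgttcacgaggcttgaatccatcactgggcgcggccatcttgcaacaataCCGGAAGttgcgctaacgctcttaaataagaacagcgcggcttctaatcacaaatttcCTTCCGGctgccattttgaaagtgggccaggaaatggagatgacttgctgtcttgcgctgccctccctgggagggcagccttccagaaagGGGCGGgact

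All 10 genes were matched to RefSeq by gene ID. CCAAT was found in 5 of the 10 windows, those of CHCHD3, CHCHD6, IMMT, SAMM50 and PHB, and in 32.0% of 35116 RefSeq windows of the same length. The ETS motif was found in IMMT, APOO and PHB2, against 8.52% of all windows, and the GC box in 8 of 10, against 42.6%. The E-box CACGTG matched none of the 10 windows and 6.34% of all. CHCHD3 has 1 CCAAT match, at position -100 from the start, and CHCHD6 has 2, at -73 and -50, so the oppositely changed pair share this short motif. The GC content of the 10 windows ran between 46.8% in DNAJC19 and 71.6% in APOO, and its median over all windows was 58.0%. A match of letters is a description of the sequence and not evidence that a factor binds there.

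The target of the hairpins was checked first. TAZ (gene ID 6901) stood at 1.47 and 2.13 RPKM with shRNA2, 4.02 and 4.10 RPKM with shRNA1, and 11.3 and 11.9 RPKM with the control hairpin. RPKM are reads scaled to gene length and to a size of the library, given below. The log2 fold change over control was -2.41 with shRNA2 and -1.41 with shRNA1. The log2 difference of shRNA2 from shRNA1 was -1.001 (limma, adjusted p = 0.00801).

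Reads recovered from the RPKM steps summed to 18186180 and 19155270 with shRNA2, 20119580 and 20277037 with shRNA1, and 18047766 and 19314102 with the control hairpin. All 9 genes of a myeloid marker list exceeded 1 RPKM, and the T and B lymphocyte list had none above 1 RPKM among the 3 of its 6 genes that were read. The summed myeloid level was 4020 to 4769 RPKM with shRNA2, 5300 to 5831 with shRNA1 and 1131 to 1267 with control. Most of it came from LYZ, the lysozyme gene, and the list did not move alike. MPO was lower with both hairpins than with control. It stood at 1.02 and 1.49 RPKM with shRNA2, 5.16 and 4.63 with shRNA1, and 11.2 and 10.1 with control. SPI1 overlapped control with shRNA1, and CEBPA did so with both hairpins. PTPRC, CD33, FLT3, MYB and CSF3R were higher with both hairpins than with control. A monocyte maturation list had 8 of 9 genes above 1 RPKM. It summed to 2525 to 3752 RPKM with shRNA2, 713 to 827 with shRNA1 and 1367 to 2375 with control. Most of that sum came from S100A8 and S100A9, and the genes of the list did not move alike. With shRNA1, S100A9 stood at 405 and 328 RPKM, beside 1410 and 838 with control. CD68 went the other way, at 103 and 84.7 RPKM with shRNA1 and 47.8 and 28.2 with control. CCR2 and CSF1R were likewise higher with shRNA1 than with control. The erythroid and megakaryocyte list could be read for ITGA2B alone, at no more than 0.171 RPKM, and the stroma and epithelium list for PECAM1 alone, at 16.6 to 22.7 RPKM with shRNA2, 18.3 to 21.3 with shRNA1 and 6.82 to 9.18 with control. The part of these shifts in the results below was not tested. In such bulk RNA, fewer cells that express a gene and less of its RNA per cell cannot be told apart.

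In control cells the order of levels per length was PHB2, PHB, IMMT, DNAJC19, SAMM50, CHCHD3, OPA1, APOO, CHCHD6 and APOOL, and no neighbours in that order overlapped between libraries. PHB2 averaged 288 RPKM, above 98.1% of all listed genes, and APOOL averaged 3.54 RPKM, at the 36.0th percentile. With either TAZ hairpin, CHCHD3 stood just below PHB and ahead of IMMT, and DNAJC19 stood behind SAMM50. The percentile of CHCHD3 among all genes was 93.0 with shRNA2, 92.1 with shRNA1 and 82.7 with control. SAMM50 and DNAJC19 with shRNA2 were the only neighbours whose libraries overlapped in either knockdown group.

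**Figure D1:**
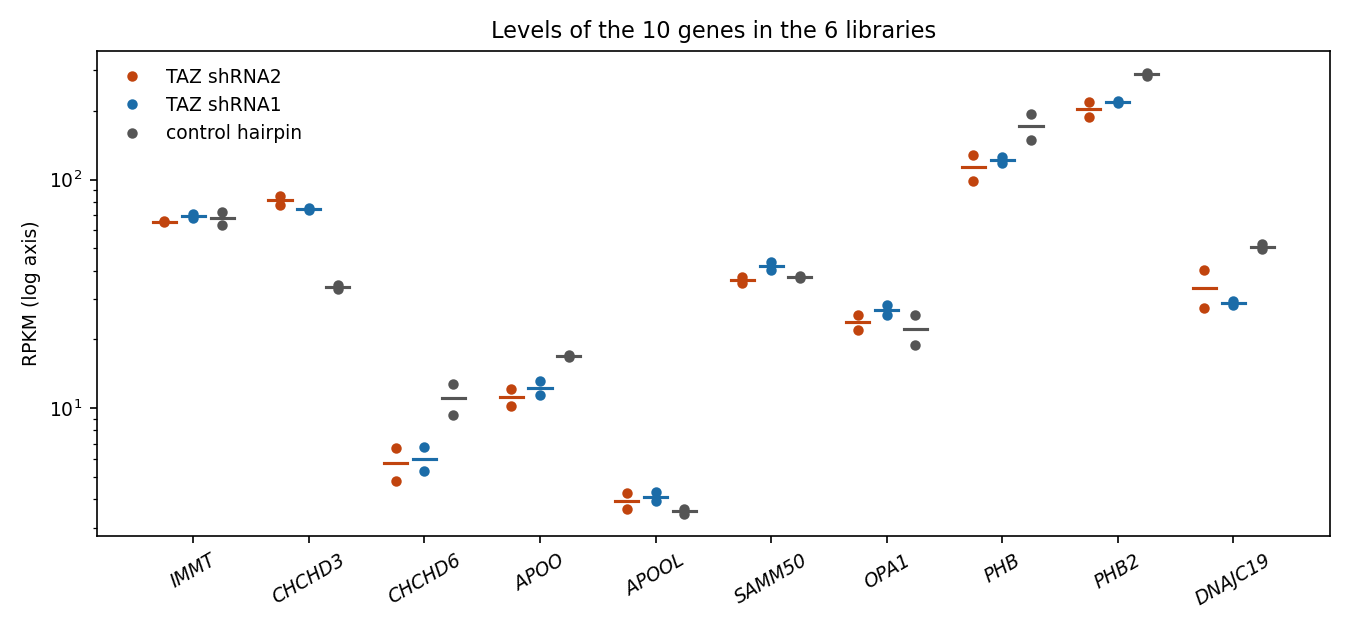
RPKM (log axis) of the 10 genes in each of the 6 libraries; points are libraries, short bars group means, and the groups are TAZ shRNA2, TAZ shRNA1 and the control hairpin. CHCHD3 lies higher in all 4 knockdown libraries than in control, CHCHD6, APOO, PHB, PHB2 and DNAJC19 lie lower, and IMMT and OPA1 overlap control with both hairpins.

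With shRNA2, 1 of the 10 genes rose (CHCHD3) and 2 fell (CHCHD6 and APOO) at an adjusted p under 0.05, limma's test with Benjamini-Hochberg adjustment over all genes tested. Of all 10659 genes tested with shRNA2, 15.7% passed in either direction, 8.12% higher and 7.61% lower. With shRNA1, CHCHD3 rose, CHCHD6 and APOO fell, and DNAJC19 fell as well, making 1 higher and 3 lower. Of all 10613 genes tested with shRNA1, 18.6% passed, 9.99% higher and 8.58% lower. The groups did not overlap for 1 higher and 5 lower genes with shRNA2, where 31.0% of all genes were separated upward and 31.1% downward. With shRNA1, 3 genes were separated upward and 5 downward, where the shares over all genes were 33.5% and 32.5%. The median log2 fold change of the 10 genes was -0.28 with shRNA2 and -0.18 with shRNA1, beside -0.005 and -0.0005 over all genes tested. All 10 passed the filter of a mean of at least 1 RPKM in every comparison.

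**Figure D2:**
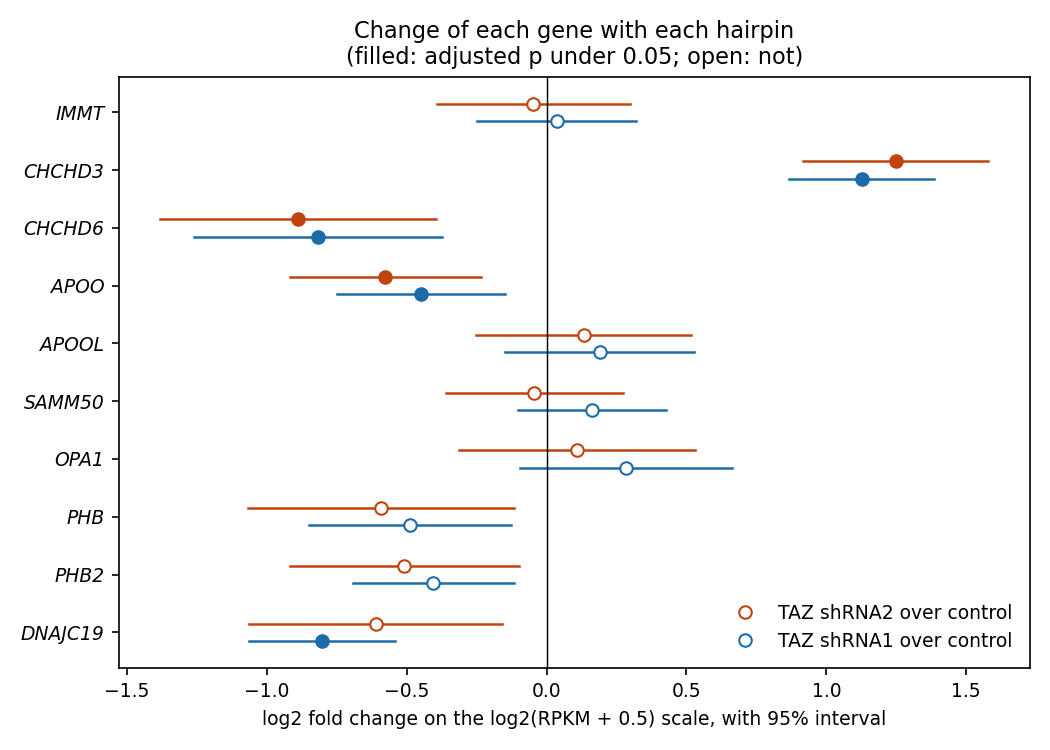
Log2 fold change of each gene over the control hairpin on the log2(RPKM + 0.5) scale, with its 95% interval from limma; TAZ shRNA2 stands above TAZ shRNA1 for each gene, filled points passed an adjusted p of 0.05 and open points did not. CHCHD3 is the gene to the right at 1.25 and 1.13, and CHCHD6, APOO, PHB, PHB2 and DNAJC19 lie to the left of 0 with both hairpins.

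CHCHD3 (gene ID 54927), the MICOS subunit that links IMMT to SAMM50, rose with both hairpins. It measured 85.0 and 77.6 RPKM with shRNA2, 75.2 and 74.0 RPKM with shRNA1, and 34.7 and 33.1 RPKM with the control hairpin. Every knockdown library therefore lay above both control libraries, and the lowest of them exceeded the highest control by more than the spread within any group. The reads behind these levels were 2627 and 2480 with shRNA2, 2465 and 2482 with shRNA1, and 988 and 1067 with control. The log2 fold change was 1.25 ± 0.14 with shRNA2 (SE, n = 2 each, limma adjusted p = 0.00345) and 1.13 ± 0.11 with shRNA1 (SE, n = 2 each, limma adjusted p = 0.00238). In group means this was 2.40-fold and 2.20-fold higher. These log2 fold changes exceeded the 95th percentile over all genes, which was 0.77 with shRNA2 and 0.71 with shRNA1. The call was kept in all 12 other settings of the analysis and after leaving out any of the 4 libraries of each comparison.

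CHCHD6 (gene ID 84303), the paralogous MICOS subunit, went the other way. Its levels were 6.71 and 4.78 RPKM with shRNA2, 6.75 and 5.30 RPKM with shRNA1, and 12.8 and 9.33 RPKM with control. In each group library A was the higher, and even the lower control library exceeded all 4 knockdown libraries. The counts were small, 133 and 98 reads with shRNA2, 142 and 114 with shRNA1, and 233 and 193 with control. CHCHD6 fell by 0.89 ± 0.21 on the log2 scale with shRNA2 (SE, limma adjusted p = 0.0325) and by 0.82 ± 0.19 with shRNA1 (SE, limma adjusted p = 0.0274). Those calls were lost without shRNA2 B (-0.66, limma adjusted p = 0.125) and without shRNA1 B (-0.66, limma adjusted p = 0.168), and held without any other library and in all 12 other settings.

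IMMT (gene ID 10989), the MICOS scaffold, showed no detectable change. It measured 65.2 and 65.6 RPKM with shRNA2, 70.7 and 68.0 RPKM with shRNA1, and 63.2 and 72.3 RPKM with control. All 4 knockdown libraries lay inside the range of the control pair. The 95% interval of the log2 fold change was -0.39 to 0.30 with shRNA2 and -0.25 to 0.32 with shRNA1. The CHCHD3 to IMMT ratio was 1.30 and 1.184 with shRNA2, 1.06 and 1.09 with shRNA1, and 0.549 and 0.458 with control.

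The apolipoprotein O family gives MICOS its lipid-binding subunits APOO (MIC26) and APOOL (MIC27). APOO (gene ID 79135) stood at 12.2 and 10.3 RPKM with shRNA2, 13.2 and 11.4 RPKM with shRNA1, and 16.8 and 17.0 RPKM with control, with 233 to 390 reads a library. The control pair was close together and above all 4 knockdown libraries. APOO fell by 0.58 ± 0.15 on the log2 scale with shRNA2 (SE, limma adjusted p = 0.0390) and by 0.45 ± 0.13 with shRNA1 (SE, limma adjusted p = 0.0494). Both calls sat near the threshold. They were lost when the trend over gene length was removed, at -0.39 with shRNA2 (limma adjusted p = 0.0699) and -0.20 with shRNA1 (limma adjusted p = 0.295), and with limma-voom on recovered reads (limma adjusted p = 0.0555 and 0.0690). Leaving out either library of the hairpin group ended them too, with the largest adjusted p without shRNA2 B (limma adjusted p = 0.224) and without shRNA1 B (limma adjusted p = 0.427). The shRNA2 call was also lost without control A, at -0.59. Both calls were lost with no trend in the prior variance (limma adjusted p = 0.0544 with shRNA2 and 0.0642 with shRNA1). The shRNA1 call was also lost with no filter on low values (limma adjusted p = 0.0583). With all 6 libraries in 1 fit it was lost too (limma adjusted p = 0.0506).

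APOOL (gene ID 139322), the lowest of the 10, measured 3.64 and 4.24 RPKM with shRNA2, 3.92 and 4.29 RPKM with shRNA1, and 3.44 and 3.64 RPKM with control. Its shRNA2 libraries touched the control range and its shRNA1 libraries lay above it. It was not called, with a log2 fold change of 0.13 (95% interval -0.25 to 0.52) with shRNA2 and 0.19 (-0.15 to 0.53) with shRNA1. The APOO to APOOL ratio was 3.35 and 2.42 with shRNA2, 3.36 and 2.65 with shRNA1, and 4.88 and 4.68 with control. In RPKM the 2 family members were thus less unequal in every knockdown library. APOO has 1129 bases and APOOL 6467, and the ratio is not corrected for the trend over gene length. With that trend removed, APOO stood at -0.39 and -0.20 and APOOL at 0.0022 and 0.0043 with shRNA2 and shRNA1.

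The make-up of the listed MICOS transcripts differed more than their sum. The summed RPKM of IMMT, CHCHD3, CHCHD6, APOO and APOOL was 173 and 163 with shRNA2, 169.8 and 163 with shRNA1, and 131 and 135 with control. CHCHD3 supplied 49.2% and 47.8% of that sum with shRNA2, 44.3% and 45.4% with shRNA1, and 26.5% and 24.4% with control. The CHCHD3 to CHCHD6 ratio was 12.7 and 16.2 with shRNA2, 11.1 and 13.97 with shRNA1, and 2.72 and 3.55 with control. Its mean was 14.5 ± 2.52 with shRNA2, 12.6 ± 2.00 with shRNA1 and 3.13 ± 0.584 with control (SD, n = 2 each), and no knockdown library came near the control pair. These ratios are a description and carry no test.

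**Figure D3:**
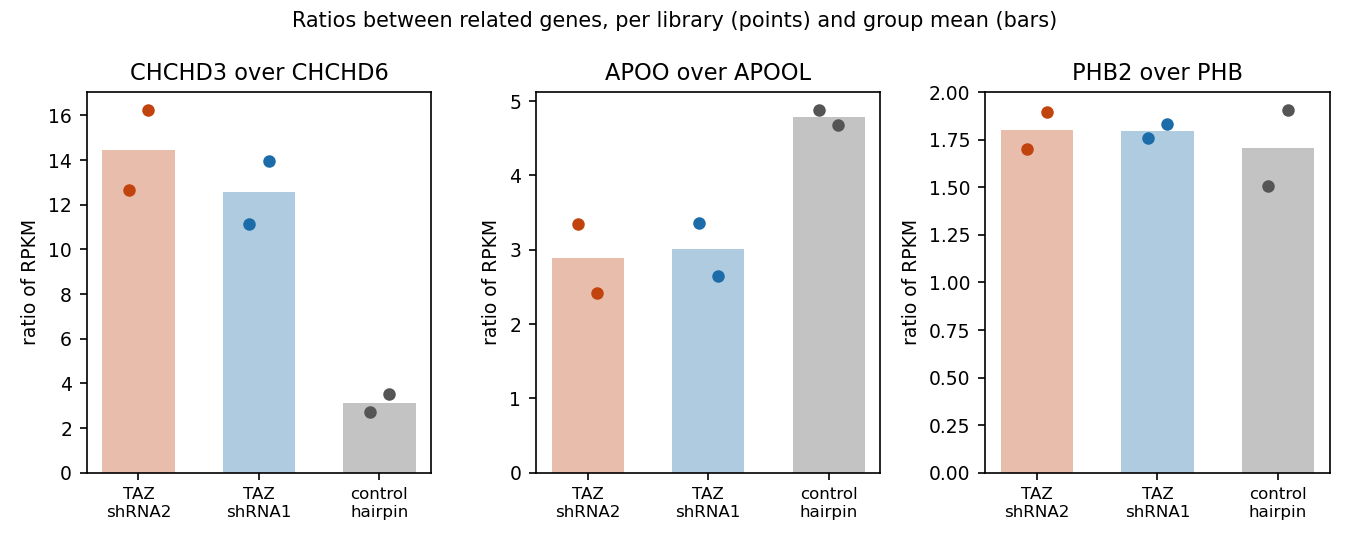
Ratios of RPKM between related genes in each library (points) and group mean (bars, starting at 0), for TAZ shRNA2, TAZ shRNA1 and the control hairpin. CHCHD3 over CHCHD6 is 11.1 to 16.2 in the knockdown libraries and 2.72 to 3.55 in control, APOO over APOOL is lower in knockdown, and PHB2 over PHB overlaps between all groups.

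SAMM50 (gene ID 25813), which inserts barrel proteins into the outer membrane and anchors MICOS there, did not pass the test. It measured 37.4 and 35.3 RPKM with shRNA2, 43.7 and 40.4 RPKM with shRNA1, and 38.0 and 37.0 RPKM with control. The shRNA1 pair lay above control and the shRNA2 pair overlapped it. The log2 fold change was -0.04 (95% interval -0.36 to 0.27) with shRNA2 and 0.16 (-0.10 to 0.43) with shRNA1, and its shRNA2 value had no stable sign across normalizations.

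OPA1 (gene ID 4976), the inner membrane fusion GTPase, was likewise not called. Its levels were 21.9 and 25.6 RPKM with shRNA2, 25.5 and 28.3 RPKM with shRNA1, and 18.9 and 25.5 RPKM with control. Library A was the lower of each pair, and the control pair was the most spread. The log2 fold change was 0.11 (95% interval -0.31 to 0.53) with shRNA2 and 0.28 (-0.10 to 0.66) with shRNA1. The shRNA1 value was 0.50 without control B and 0.071 without control A. With the trend over gene length removed, it was 0.099 (limma adjusted p = 0.589).

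The prohibitins PHB (gene ID 5245) and PHB2 (gene ID 11331) were the most abundant of the 10 and had lower values in every knockdown library without passing the threshold. PHB measured 129 and 98.9 RPKM with shRNA2, 125 and 118 RPKM with shRNA1, and 194 and 149 RPKM with control. The highest knockdown library stayed under the lower control library, and the control pair itself differed 1.30-fold, A over B. PHB2 measured 219 and 188 RPKM with shRNA2, 219.9 and 216 RPKM with shRNA1, and 293 and 284 RPKM with control. Here the control pair was tight and again above all 4 knockdown libraries.

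The log2 fold change of PHB was -0.59 (95% interval -1.07 to -0.11, limma adjusted p = 0.0901) with shRNA2 and -0.49 (-0.85 to -0.13, limma adjusted p = 0.0664) with shRNA1. For PHB2 it was -0.51 (95% interval -0.92 to -0.10, limma adjusted p = 0.0898) with shRNA2 and -0.40 (-0.69 to -0.12, limma adjusted p = 0.0600) with shRNA1. The intervals exclude 0 for each gene taken alone, and the adjustment over all genes leaves them uncalled. Some alternative fits did call them, and most of the other settings did not. Of the 12 other settings, PHB passed in 3 with shRNA2 and 2 with shRNA1, and PHB2 passed in 3 with each hairpin. A fit with a term for the library letter was among them each time. PHB passed with shRNA2 when the length trend was removed (limma adjusted p = 0.0409) and with shRNA1 by limma-voom on recovered reads (adjusted p = 0.0427). With all 6 libraries in 1 fit, PHB (limma adjusted p = 0.0430) and PHB2 (limma adjusted p = 0.0305) passed with shRNA2 and neither passed with shRNA1. The authors' deposited table lists PHB and PHB2 as lower with both hairpins at a false discovery rate under 0.05. PHB2 passed with shRNA1 by limma-voom on recovered reads (adjusted p = 0.0368) and with each library scaled to the same median (limma adjusted p = 0.0497). With shRNA2 it also passed when the length trend was removed (limma adjusted p = 0.0379). With shRNA1 that removal gave PHB2 -0.21 (limma adjusted p = 0.131). Leaving out 1 library moved PHB between -0.78 and -0.40 with shRNA2 and between -0.68 and -0.30 with shRNA1. The smallest PHB value with shRNA1 came without control A. For PHB2 the range was -0.62 to -0.40 with shRNA2 and -0.43 to -0.38 with shRNA1. The PHB2 to PHB ratio overlapped between all groups, at 1.70 and 1.90 with shRNA2, 1.76 and 1.83 with shRNA1, and 1.51 and 1.91 with control. Together the pair summed to 347 and 287 RPKM with shRNA2, 345 and 333 with shRNA1, and 487 and 433 with control.

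DNAJC19 (gene ID 131118), the J protein that binds prohibitins, fell with shRNA1 and did not pass the test with shRNA2. It measured 40.1 and 27.4 RPKM with shRNA2, 28.3 and 29.5 RPKM with shRNA1, and 52.2 and 49.5 RPKM with control. All 4 knockdown libraries were under both control libraries, and shRNA2 A stood apart from the other 3. With shRNA1 the gene fell by 0.80 ± 0.11 on the log2 scale (SE, limma adjusted p = 0.00632), a call kept in all 12 other settings and all 4 leave-outs. For shRNA2 the value was -0.61 ± 0.19 (SE, limma adjusted p = 0.0720), so it was not called. It passed with all 6 libraries in 1 fit (limma adjusted p = 0.0348), without control B (-0.65, limma adjusted p = 0.0498) and without shRNA2 A (-0.88, limma adjusted p = 0.0137). Without shRNA2 B it was -0.34 (limma adjusted p = 0.368), so the size rests on which shRNA2 library is used. The difference between the hairpins, 0.19 (95% interval -0.20 to 0.59), did not pass.

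Set directly against each other, the hairpins gave no call among the 10 genes (0 of 10 by limma, 0 at an unadjusted p under 0.05 and 0 by limma-voom on recovered reads). Over all 10660 genes tested, 10.9% differed, 4.78% higher and 6.1% lower in shRNA2. The libraries of the hairpins did not overlap for CHCHD3, higher with shRNA2, and for IMMT and SAMM50, lower with shRNA2, where 27.4% of all genes were separated upward and 31.2% downward. The log2 difference, shRNA2 minus shRNA1, ran between -0.21 for SAMM50 (95% interval -0.47 to 0.06) and 0.19 for DNAJC19. For CHCHD3 it was 0.12 (95% interval -0.15 to 0.39) and for CHCHD6 -0.07 (-0.54 to 0.40), so differences of these sizes between the hairpins were not detectable. TAZ itself was lower with shRNA2 than with shRNA1, as given above.

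The authors' deposited table called CHCHD3 higher and CHCHD6, APOO, PHB, PHB2 and DNAJC19 lower with each hairpin, 1 up and 5 down both times. Of all genes listed there, 38.8% were called with shRNA2 (19.9% higher, 18.9% lower) and 35.9% with shRNA1 (18.8% higher, 17.1% lower). Its log2 fold changes for CHCHD3 were 1.27 with shRNA2 and 1.13 with shRNA1, and for CHCHD6 -0.94 and -0.87. The authors' deposited table gave OPA1 0.12 and 0.29, APOOL 0.16 and 0.21, SAMM50 -0.04 and 0.16, and IMMT -0.04 and 0.03 with shRNA2 and shRNA1 on the same scale, none of them called.

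Across the 6 libraries, log2 levels of the genes with lower values in knockdown ran together. Pearson's r ran between 0.865 for DNAJC19 with APOO and 0.982 for PHB with CHCHD6, and was 0.942 for PHB2 with PHB. CHCHD3 ran against them, with r between -0.929 to PHB2 and -0.812 to PHB. The genes were grouped by their values in these same libraries, so r of these signs follows from the grouping and is no separate result. These r values are descriptions over libraries that fall into groups sharing treatment. Outside the 10 genes, the profiles most like their mean were those of SNRPD1, a core protein of splicing particles (r = 0.996 over the 6 libraries), PSMC4, a proteasome ATPase (0.994), ZSWIM7 (0.993), LYRM4, a factor of iron-sulphur cluster assembly (0.993), and RNASEH2A, a subunit of ribonuclease H2 (0.992). Of 10650 other genes compared, 152 reached an r of at least 0.95. The mean profile mixes CHCHD3, which was higher in knockdown, with genes that were lower or little changed. On the log2 scale centred per gene it ran only between -0.16 in shRNA2 B and 0.11 in control A. Likeness to it is therefore not likeness to each of the 10 genes.

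Gene length moved with the changes. With all genes tested split by length into 4 equal classes, the shortest class had a median log2 fold change of -0.18 with shRNA2 and -0.24 with shRNA1, and the longest class 0.13 and 0.19. CHCHD3, CHCHD6, APOO, SAMM50, PHB2 and DNAJC19, of 1020 to 1756 bases, belong to the shortest class, PHB to the second, IMMT to the third, and OPA1 and APOOL to the longest. With that trend removed from each library, CHCHD3 stood at 1.38 with shRNA2 and 1.29 with shRNA1, and CHCHD6 at -0.69 and -0.55, all still called, and DNAJC19 at -0.46 and -0.61, called with shRNA1. GENCODE 29 lists 21 pseudogenes named after PHB, 9 after DNAJC19, 5 after APOO, 3 after CHCHD3 and 1 each after IMMT, SAMM50 and PHB2. None of them is among the deposited genes, and their part in these levels was not tested. PHB2 overlaps the small RNA gene SCARNA12 on its own strand, and SCARNA12 itself had log2 fold changes of -0.57 and -0.67 with shRNA2 and shRNA1, neither of them called. SAMM50 overlaps PNPLA3 and CHCHD3 overlaps a processed pseudogene, each on its own strand, and the part of these overlaps in the levels was not tested. IMMT, APOO, APOOL, OPA1, PHB, PHB2 and DNAJC19 each overlap a gene on the opposite strand. The library kit was directional, but the strand setting of the counting is not given in the sources used here.

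The counts called in the related lists are read beside the shares over all genes tested. These were 8.12% higher and 7.61% lower with shRNA2, and 9.99% and 8.58% with shRNA1. In a list of 9 genes, 1 call in a direction is near such a share. Among 9 other MICOS and bridging genes, none was called with shRNA2 and 2 fell with shRNA1, with medians of -0.24 and -0.25. The metaxin MTX2, a partner of SAMM50 in the outer membrane, fell by 0.69 on the log2 scale with shRNA1 (limma adjusted p = 0.0178) and had -0.48 with shRNA2 (limma adjusted p = 0.122). The other was CHCHD10, a relative of CHCHD2 in the intermembrane space, at -0.87 with shRNA1 (limma adjusted p = 0.0147) and -0.25 with shRNA2, named after its values were seen. CHCHD2 itself (-0.50 and -0.60 with shRNA2 and shRNA1) and MTX1 (-0.27 and -0.23) were not called. The list thus shows no gene that passed with both hairpins.

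Over all genes tested, 7.61% fell with shRNA2 and 8.58% with shRNA1. Of 9 proteases and partners of OPA1 and the prohibitins, 1 fell with each hairpin, which is near that share. It was HTRA2 both times, a serine protease of the intermembrane space, at 17.8 and 14.2 RPKM with shRNA2, 19.6 and 17.4 with shRNA1, and 29.5 and 24.4 with control. Its log2 fold change was -0.74 ± 0.17 with shRNA2 (SE, limma adjusted p = 0.0296) and -0.52 ± 0.14 with shRNA1 (SE, limma adjusted p = 0.0407). SPG7, which encodes a subunit of the m-AAA protease that prohibitin rings enclose, STOML2, a cardiolipin-binding stomatin relative, and CLPB, a disaggregase of the intermembrane space, had values of -0.42 to -0.20 and were not called.

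Over all genes tested, 8.12% rose with shRNA2 and 9.99% with shRNA1. Of 10 outer membrane fusion and fission genes, none was called with shRNA2 and 4 rose with shRNA1. The mitofusins that dock outer membranes were among them: MFN1 rose by 0.55 on the log2 scale with shRNA1 (limma adjusted p = 0.0350) and MFN2 by 0.56 (limma adjusted p = 0.0321). With shRNA2 they stood at 0.50 and 0.48 (limma adjusted p = 0.0544 and 0.0759). OPA3, a gene of inherited optic atrophy, rose by 0.54 with shRNA1 (limma adjusted p = 0.0452) and had 0.45 with shRNA2. The fourth was MTFR1, a fission regulator named after its values were seen, at 0.42 with shRNA1 and -0.05 with shRNA2. The difference between the hairpins was not called for any of the 10.

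None of 9 ATP synthase dimer and membrane subunits, which bend crista ridges, was called with either hairpin, and their median was 0.00 with shRNA2 and -0.24 with shRNA1. ATP5I, a dimer subunit, had -0.32 and -0.60 with shRNA2 and shRNA1, C14orf2 had -0.18 and -0.46, and ATP5L had 0.28 and -0.20. The 9 genes of the presequence import motor, whose J protein in yeast, Pam18, resembles DNAJC19, had medians of -0.40 and -0.37. No list median or list gene was corrected for the trend over gene length. The shortest class of all genes had medians of -0.18 with shRNA2 and -0.24 with shRNA1. Over all genes tested, 7.61% fell with shRNA2. Of the import motor genes only TIMM50, the receptor of the TIM23 translocase, fell with shRNA2, by 0.63 (limma adjusted p = 0.0364). It had -0.37 with shRNA1. GRPEL1, the nucleotide exchange factor of the motor, and TIMM17B, a translocase channel subunit, had values of -0.58 to -0.37 and were not called.

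Of all genes tested with shRNA2, 15.7% were called in either direction. Of 7 outer membrane insertion and translocase genes, only TOMM20, an import receptor, was called, and only with shRNA2. It measured 138 and 133 RPKM with shRNA2, 264 and 297 RPKM with shRNA1, and 197 and 227 RPKM with control. The groups lay on opposite sides of control, and the log2 difference of shRNA2 from shRNA1 was -1.04 (limma adjusted p = 0.00386). TOMM40, the import channel, and TOMM5, a small subunit beside it, had values of -0.44 to -0.20 and were not called with either hairpin.

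Of 9 cardiolipin genes, TAZ included, 1 rose and 2 fell with shRNA2, and 2 rose and 2 fell with shRNA1. Over all genes tested the shares were 8.12% higher and 7.61% lower with shRNA2, and 9.99% and 8.58% with shRNA1. Beside TAZ, the gene that fell with both was LCLAT1, a lysocardiolipin acyltransferase, at 4.99 and 4.92 RPKM with shRNA2, 4.22 and 4.04 with shRNA1, and 7.27 and 8.15 with control. Its log2 fold change was -0.59 ± 0.15 with shRNA2 (SE, limma adjusted p = 0.0383) and -0.83 ± 0.14 with shRNA1 (SE, limma adjusted p = 0.0105). The phospholipase PNPLA8 rose by 0.56 with shRNA2 (limma adjusted p = 0.0451) and had 0.29 with shRNA1, and PLA2G6 rose by 0.65 with shRNA1 (limma adjusted p = 0.0284) and had 0.51 with shRNA2. HADHA, named after its values were seen, was the other gene that rose with shRNA1, by 0.46, and had 0.20 with shRNA2. TAMM41, which makes the CDP-diacylglycerol precursor, was not called.

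**Figure D4:**
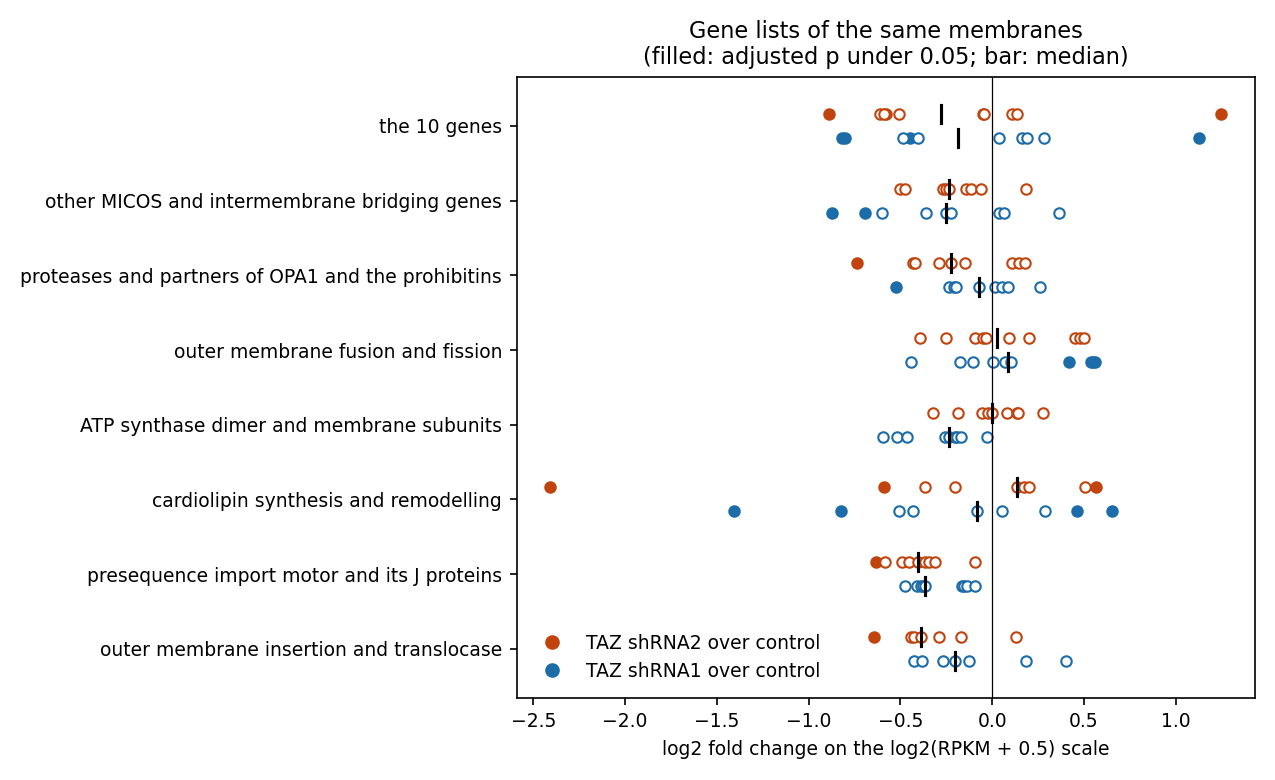
Log2 fold change over control on the log2(RPKM + 0.5) scale for the 10 genes and 7 related lists; each point is a gene, filled where its adjusted p was under 0.05, black bars are list medians, and TAZ shRNA2 stands above TAZ shRNA1. CHCHD3 at 1.25 and 1.13 lies to the right of every other gene shown, TAZ at -2.41 and -1.41 to the left of every other, and the list medians lie between -0.40 and 0.13.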

How the data were processed

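Total RNA of OCI-AML2 cells was sequenced after directional library preparation, per the labels' protocols. The submitters' processing notes name build hg19 and, without role, edgeR 3.8.6, DESeq 1.18.0, HTSeq 0.6.1p2, TopHat2 2.0.11 and Trim Galore 0.4.0. The authors deposited RPKM per library, and each table beside it holds their log2 fold change and log2 CPM, a likelihood ratio score, and a p-value with its false discovery rate, per the file headers. Their rule for filtering genes is not given in the sources used here. Each table lists 13004 genes, of which 2 repeats were dropped, and 21 symbols have turned into dates. The control columns are identical in both tables.

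From the RPKM, limma 3.58.1 in R 4.3.3 was fitted to log2(RPKM + 0.5) with a trended prior, over genes averaging 1 RPKM or more, two-sided. A fold change on that scale understates that of low genes. Whole reads within 0.05 were recovered for 99.7% of genes from the RPKM steps. Their totals served for depth. The reads served for limma-voom, an alternative test, with library sizes in proportion to those behind the RPKM. The fitting procedure was tested on simulated data.

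The 10 genes and all lists were chosen with earlier results of these data known. Named were all 10 genes, TAZ, the genes of each list called with both hairpins and up to 3 more with the smallest larger p, and the 5 genes most like the mean profile of the 10. Alternatives varied pseudocount, filter, normalization, length trend, prior, libraries in the fit and the block by letter, and left out each library in turn.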

Additional observations from a re-analysis of the deposited data

How the results depend on the processing

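Each comparison rests on 2 libraries a group, and depth limits CHCHD6 (98 to 233 reads) and APOO most. The number of genes called among the 10 was 3 with shRNA2 and 4 with shRNA1. The shRNA2 count was 6 with the replicate block and 6 with 6 libraries in the fit, and the shRNA1 count was 6 with the replicate block. The replicate block added PHB, PHB2 and DNAJC19 with shRNA2 (limma adjusted p = 0.00105, 0.00204 and 0.00453) and PHB and PHB2 with shRNA1 (limma adjusted p = 0.00573 and 0.0277), and changed no other call among the 10. The letters correlate between groups (r of 0.26 to 0.42 for the A minus B differences), but with 2 of them and no label on what they share they were not taken as pairs. Leaving out 1 library gave 1 to 5 called with shRNA2, the lowest without shRNA2 B and the highest without control B. It gave 2 to 7 with shRNA1, the lowest without shRNA1 B and the highest without control B. These fits assume that the lone library left in a group varies like the other group. No setting called any of the 10 between the hairpins. In the other settings the counts stayed within 2 to 4 with shRNA2 and 3 to 5 with shRNA1. Over all genes, 1676 were called with shRNA2, 4170 with the block, 2584 with 6 libraries, 2515 with the length trend removed and 823 to 2010 after leaving out a library. With shRNA1 1971 were called, 3780 with the block and 461 to 4397 after leaving out a library. Between the hairpins 1160 were called, 2396 with the block, 1801 with the length trend removed and 155 to 444 after leaving out a library. Signs turned only for uncalled genes. With shRNA2, quantile normalization gave IMMT 0.0544 and SAMM50 0.0040, and removing the length trend gave SAMM50 0.0685 and OPA1 -0.0230. Leaving out a library moved IMMT between -0.14 and 0.0486 and OPA1 between -0.105 and 0.32 with shRNA2, and IMMT between -0.0592 and 0.13 with shRNA1. Between the hairpins it moved CHCHD6 between -0.30 and 0.15, APOOL between -0.15 and 0.0421, PHB between -0.29 and 0.0838, PHB2 between -0.21 and 0.0068, and DNAJC19 between -0.0778 and 0.46. The cause of these changes was not tested. A filter at 5 RPKM leaves no value for APOOL.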
